A study of Mus musculus with 4 samples.

Results

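The genes examined here are 8 transcription factor genes of lung epithelium, namely Nkx2-1, Foxa1, Foxa2, Gata5, Gata6, Cebpa, Sox9 and Elf3, of 46078 genes in the deposited count table. They were picked by name, with their levels in these same libraries already known, so those levels and the ratios between them are a description and carry no test. Messenger RNA had been sequenced from MLE-12, a mouse alveolar epithelial cell line immortalised by a viral T antigen driven by a surfactant protein promoter. The 4 conditions were wild-type cells left unscratched, wild-type cells 24 hours after a scratch wound to the monolayer, cells labelled Lingo1 knockout left unscratched, and cells labelled Lingo1 knockout 24 hours after a scratch. Values given 4 in a row stand in this order. All 4 shared the same cell line, each condition had 1 library, and whether the knockout line is 1 clone is not given in the sources used here. No difference below therefore has a replicate check, and every interval covers counting error only.

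Lung epithelium is laid down and kept by a small set of DNA-binding factors that act on shared enhancers. NKX2-1, a homeodomain protein, is the earliest marker of lung fate and binds the promoters of the surfactant genes. FOXA1 and FOXA2 are forkhead proteins that open closed chromatin and have overlapping duties in airway and alveolar cells. GATA6 and CEBPA take part in maturation of the distal epithelium and its lipid and surfactant programme, SOX9 marks progenitors at the growing tips, and ELF3 is an ETS factor of many epithelia. GATA5 is a GATA factor best known from heart and endoderm.

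Gata5 and Cebpa were the members with the largest differences, and Foxa1 was the member lower in both knockout-labelled libraries by the size rule given further on. Their promoters are printed for that reason, from RefSeq (build GRCm38.p6), each 300 bases long from 250 bases before the transcript start to 50 after it, written 5′ to 3′ on the strand of the gene. Of the 8 members, 6 matched the promoter table, 1 of them (Foxa2) with several starts. Capitals mark matches on either strand to any of 7 motifs. AGATAA is the site of GATA factors. Forkhead factors bind TGTTTAC, and NKX2 factors bind CAAGTG, which is also an E-box. For CEBP factors the letters were TTGCNNAA, and for ETS factors such as ELF3 they were AGGAAG. Besides these, TATAAA was searched for the core promoter box and CCAAT for the box of the factor NF-Y. The Gata5 window is chr2:180334630-180334929 on the minus strand, the Cebpa window chr7:35119043-35119342 on the plus strand and the Foxa1 window chr12:57546062-57546361 on the minus strand.
Gata5 promoter: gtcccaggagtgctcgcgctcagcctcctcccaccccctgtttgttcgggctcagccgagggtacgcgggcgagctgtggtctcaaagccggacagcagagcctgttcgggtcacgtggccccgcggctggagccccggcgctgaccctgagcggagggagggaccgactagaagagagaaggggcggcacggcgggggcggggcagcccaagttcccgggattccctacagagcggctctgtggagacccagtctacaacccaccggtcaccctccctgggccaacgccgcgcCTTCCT
Cebpa promoter: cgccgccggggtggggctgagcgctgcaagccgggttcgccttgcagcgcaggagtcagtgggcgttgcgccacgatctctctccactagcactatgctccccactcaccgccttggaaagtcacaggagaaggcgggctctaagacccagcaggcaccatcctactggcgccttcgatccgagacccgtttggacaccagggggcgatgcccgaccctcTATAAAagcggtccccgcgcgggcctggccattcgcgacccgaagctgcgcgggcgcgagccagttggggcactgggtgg
Foxa1 promoter: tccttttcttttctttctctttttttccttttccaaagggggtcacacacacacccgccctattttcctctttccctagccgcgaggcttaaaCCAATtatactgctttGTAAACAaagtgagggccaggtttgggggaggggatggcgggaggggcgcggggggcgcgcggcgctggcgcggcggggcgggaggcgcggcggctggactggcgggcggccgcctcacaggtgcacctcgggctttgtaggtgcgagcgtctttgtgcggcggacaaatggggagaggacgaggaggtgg

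The Foxa1 window held a forkhead match on its minus strand, beginning at position -141 relative to the transcript start, and an NF-Y box at position -157. This window lies wholly inside the annotated span of Foxa1 (57540628 to 57546916). Its positions thus refer to the RefSeq start used and not to the outer end of the gene. Forkhead matches occurred in 3.65% of 32851 RefSeq promoter windows of this length, and NF-Y boxes in 37.4%. Cebpa had a core promoter box at position -30, a motif in 13.6% of windows. Gata5 had an ETS match on its minus strand, at position 45 after the start, and no other, and 35.4% of windows hold that motif. None of the 3 windows held the GATA, NKX2 or CEBP letters, which occurred in 11.2%, 13.6% and 10.8% of windows. Their GC content was 69.7% for Gata5, 67.3% for Cebpa and 62.3% for Foxa1, against a median of 52.7% over all windows.

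The label of the cells was borne out in part. Of 9 alveolar type 2 markers, 5 reached 1 CPM (counts scaled to a common library total with TMM factors) in each library. The lipid transporter Abca3 stood between 165 and 185 CPM and the lysophospholipid acyltransferase Lpcat1 between 144 and 148 CPM, while Sftpa1 and Sftpd had no read in any library, where a floor of 3 counts corresponds to 0.0626 to 0.111 CPM. The adhesion molecule E-cadherin (Cdh1) was at 712 to 859 CPM, but only 3 or 4 of 8 epithelial markers reached 1 CPM in a library. Cldn4 had no read and the keratin Krt18, a gene with processed copies and so an uncertain count, was at 0.148 to 0.287 CPM. Krt8, another keratin among these markers, was at 247, 258, 328 and 331 CPM in the 4 conditions. Lingo1 itself stood at 46.4 and 42.9 CPM in wild-type and at 41.2 and 41.4 CPM in knockout-labelled cells, unscratched and scratched, so the transcript was still counted under the knockout label. Library totals ran from 26903429 to 48333801 counts, and the knockout-labelled scratched library was the deepest.

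The members fell into an abundant and a scarce set. Of the 8 genes, 5 were over 30 CPM in every library and 3 stayed under 10 CPM in all of them. On the authors' RPKM scale, which is per gene length and so allows genes to be compared, Gata6 ranged from 52.8 to 65.7, Nkx2-1 from 45.6 to 58.4, Foxa2 from 39.3 to 46.3, Foxa1 from 17.4 to 25.9 and Sox9 from 7.96 to 9.22. The scarce set was Cebpa at 0.409 to 1.80 RPKM, Gata5 at 0.339 to 1.72 RPKM and Elf3 at 0.189 to 0.307 RPKM. Among the 14683 genes with RPKM values, Gata6 exceeded 90.5% to 93.1% and Elf3 9.81% to 13.7%.

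Gata6, Nkx2-1, Foxa2, Foxa1, Sox9, Cebpa, Gata5, Elf3 was the order of RPKM in each of the 4 libraries. Ranges over the 4 libraries overlapped for the neighbours Gata6 and Nkx2-1, Nkx2-1 and Foxa2, and Cebpa and Gata5, and were apart for the other neighbours. Within every library the counting intervals of Cebpa and Gata5 overlapped. Gata5 and Elf3 overlapped in both wild-type libraries and were apart in both knockout-labelled ones.

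**Figure D1:**
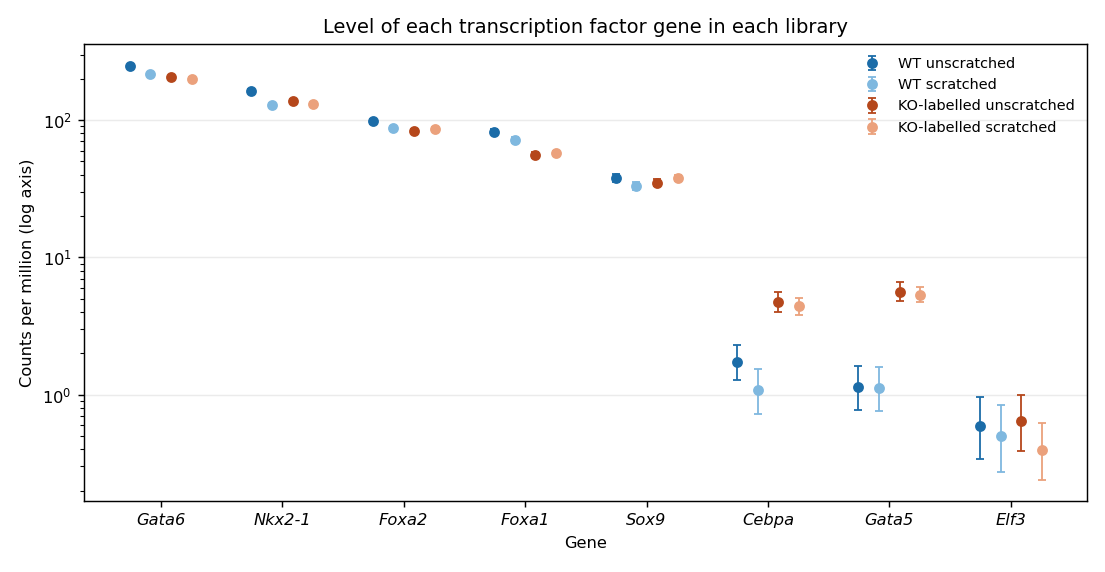
Level in CPM (log axis) of each factor gene, 1 point per library, with exact 95% Poisson intervals of the count. Gata6, Nkx2-1, Foxa2, Foxa1 and Sox9 lie above 30 CPM, and Cebpa and Gata5 are higher in both knockout-labelled libraries (4.41 to 5.64 CPM) than in both wild-type ones (1.08 to 1.73 CPM).

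Gata5 was the member that differed most between the genotypes. Its levels were 1.14, 1.11, 5.64 and 5.37 CPM in the 4 conditions, from 31, 31, 167 and 257 reads. Both knockout-labelled libraries were high and both wild-type ones low, with no overlap of their counting intervals. In such bulk RNA, a change in the number of cells with a transcript and a change in RNA per cell cannot be told apart. The ratio of knockout-labelled to wild type was 4.93 in unscratched cells (3.35 to 7.49, an exact 95% Clopper-Pearson interval from the reads of both libraries) and 4.83 in scratched cells (3.32 to 7.25).

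Cebpa, which encodes the leucine zipper factor C/EBP alpha, was the other scarce gene with more reads under the knockout label. Its levels were 1.73, 1.08, 4.73 and 4.41 CPM in the 4 conditions, from 47, 30, 140 and 211 reads. Again both knockout-labelled libraries lay above both wild-type ones. In unscratched cells the ratio was 2.73 (1.95 to 3.88) and in scratched cells 4.10 (2.79 to 6.22), and these intervals overlap. At these levels Gata5 exceeded 15.1% to 29.3% and Cebpa 17.3% to 29.8% of the genes with RPKM values.

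Foxa1 differed in the other direction. It stood at 82.3, 71.7, 55.4 and 57.7 CPM in the 4 conditions, from 1640 to 2762 reads. Both knockout-labelled libraries were lower than both wild-type ones. The knockout-labelled to wild-type ratio was 0.674 (0.632 to 0.718) without and 0.804 (0.759 to 0.852) after a scratch.

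Foxa2, a close relative that binds the same motif, was lower under the knockout label without a scratch and near 1 after it. Its level stood at 98.1, 87.2, 83.5 and 86.5 CPM in the 4 conditions. The wild-type unscratched library was the high one, and the intervals of the other 3 overlapped. The ratio was 0.851 (0.805 to 0.899) without and 0.992 (0.943 to 1.04) after a scratch. The balance of the pair, which does not depend on library scaling, was 0.559 RPKM of Foxa1 per RPKM of Foxa2 (0.528 to 0.592) and 0.548 (0.517 to 0.582) in wild-type unscratched and scratched cells. In knockout-labelled cells it was 0.443 (0.416 to 0.471) and 0.445 (0.424 to 0.467), apart from both wild-type intervals.

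Gata6, the most abundant member, had 247, 217, 206 and 201 CPM in the 4 conditions. Both knockout-labelled libraries were lower than both wild-type ones, by a small step. Its ratio was 0.831 (0.803 to 0.861) without and 0.926 (0.897 to 0.957) after a scratch.

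Nkx2-1 was at 163, 128, 137 and 132 CPM in the 4 conditions, from 3573 to 6315 reads. The wild-type unscratched library stood above the other 3. Without a scratch the knockout-labelled to wild-type ratio was 0.840 (0.805 to 0.877), and after it 1.03 (0.988 to 1.07).

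Sox9 stayed in a narrow band. It was counted at 37.9, 32.9, 35.0 and 37.9 CPM in the 4 conditions. The wild-type scratched library was the lowest, and the genotypes did not separate. The knockout-labelled to wild-type ratio was 0.922 (0.845 to 1.01) without and 1.15 (1.06 to 1.25) after a scratch.

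Elf3 was close to the limit of counting, with 16, 14, 19 and 19 reads in the 4 conditions, or 0.397 to 0.642 CPM. All 4 counting intervals overlapped. A genotype ratio between 0.530 and 2.26 without a scratch, or between 0.376 and 1.70 after it, lies within the counting error, so a difference smaller than that was not detectable at this depth.

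**Figure D2:**
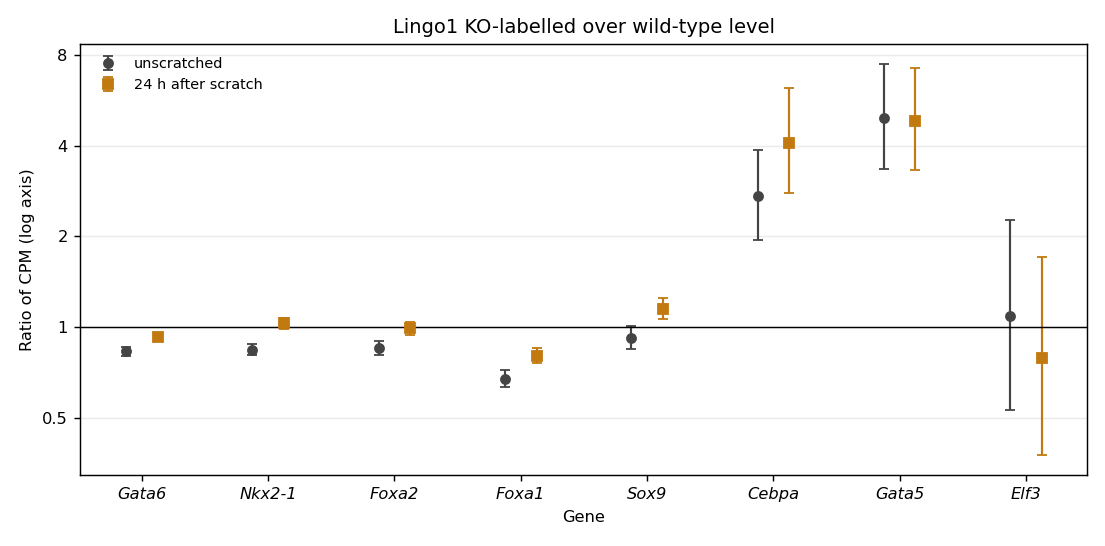
Ratio of CPM in knockout-labelled over wild-type cells (log axis) for each factor gene, without a scratch (circles) and 24 h after it (squares), with 95% counting intervals. Gata5 (4.93 and 4.83) and Cebpa (2.73 and 4.10) lie above 1 and Foxa1 (0.674 and 0.804) below 1 in both comparisons.

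A gene was counted as different when its ratio reached 1.2-fold in either direction and its counting interval left out 1. Without a scratch, 4 of the 8 members met this between the genotypes, 2 higher (Gata5 and Cebpa) and 2 lower (Foxa1 and Gata6), where 22% of the 12348 genes at 1 CPM or more in at least 1 library did, 11.7% higher and 10.3% lower. After the scratch, 3 of 8 met it, Gata5 and Cebpa higher and Foxa1 lower, against 17.1% of all these genes, 9.6% higher and 7.52% lower. At 2-fold, Gata5 and Cebpa met the rule in both comparisons, where 1.44% of genes were higher without and 1.57% after a scratch. In either direction the shares were 2.41% and 2.05%, falling to 0.858% and 0.820% among genes at 5 CPM or more. Genes of low level thus met the rule more often, and Cebpa stayed under 5 CPM in every library. On the authors' RPKM with a pseudocount of 1 added, the ratios were 2.02 and 1.96 for Gata5 and 1.69 and 1.90 for Cebpa, and the 2-fold count went from 2 to 1 without and to 0 after a scratch. The median log2 difference over the 8 members was -0.17 without and 0.01 after a scratch, against 0.01 and 0.00 over all 12348 genes. Since the members were picked with these ratios known, the counts describe them and show nothing about factors of this kind. Elf3 was under the 1 CPM filter, and the other 7 members passed it in every library.

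After the scratch the abundant factors were lower in wild-type cells, each by less than 1.5-fold. Nkx2-1 stood at 0.784 times its unscratched level (0.750 to 0.820), and Foxa1 at 0.872 (0.820 to 0.926), Foxa2 at 0.889 (0.841 to 0.939), Gata6 at 0.876 (0.846 to 0.907) and Sox9 at 0.869 (0.794 to 0.950). All 8 ratios were below 1 in wild type, and those of Cebpa (0.620, 0.379 to 1.00), Gata5 (0.972, 0.571 to 1.65) and Elf3 (0.850, 0.384 to 1.86) had intervals that reached 1. By the 1.2-fold rule 1 of the 8 members, Nkx2-1, differed, against 9.44% of all genes. With each of the 3 other scalings run, Cebpa joined it for a count of 2, since its interval then just left out 1.

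In knockout-labelled cells the ratios of the 5 abundant factors lay closer to 1. Nkx2-1 was at 0.961 (0.923 to 1.00), Gata6 at 0.977 (0.946 to 1.01), Foxa1 at 1.04 (0.978 to 1.11), Foxa2 at 1.04 (0.985 to 1.09) and Sox9 at 1.08 (1.00 to 1.17). Cebpa was at 0.931 (0.748 to 1.16), Gata5 at 0.951 (0.779 to 1.16) and Elf3 at 0.618 (0.310 to 1.23), the last 2 no closer to 1 than in wild type, and all 3 intervals included 1. None of the 8 members met the 1.2-fold rule, against 5.51% of all genes.

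The response in knockout-labelled cells divided by that in wild type gave 1.23 for Nkx2-1 (1.15 to 1.30) and 1.25 for Sox9 (1.11 to 1.40), the 2 members that met the 1.2-fold rule here, against 7.73% of all genes. Foxa1 was at 1.19 (1.10 to 1.30), Foxa2 at 1.17 (1.08 to 1.26) and Gata6 at 1.11 (1.06 to 1.17). The quotient furthest above 1 was that of Cebpa, 1.501 (0.906 to 2.49), and those of Gata5, 0.978 (0.573 to 1.67), and Elf3, 0.727 (0.279 to 1.90), were below 1, all 3 with intervals that included 1. The comparisons are not independent: the wild-type unscratched library enters the wild-type scratch response, the unscratched genotype ratio and this quotient, and it held the highest CPM of 5 of the 8 members (Nkx2-1, Foxa1, Foxa2, Gata6 and Sox9). For Sox9 the knockout-labelled scratched library was level with it, both at 37.9 CPM. Whether the wild-type unscratched library deviates or the cells responded was not tested, and with 1 library per condition these cannot be told apart. The genotype ratios after the scratch do not use it.

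**Figure D3:**
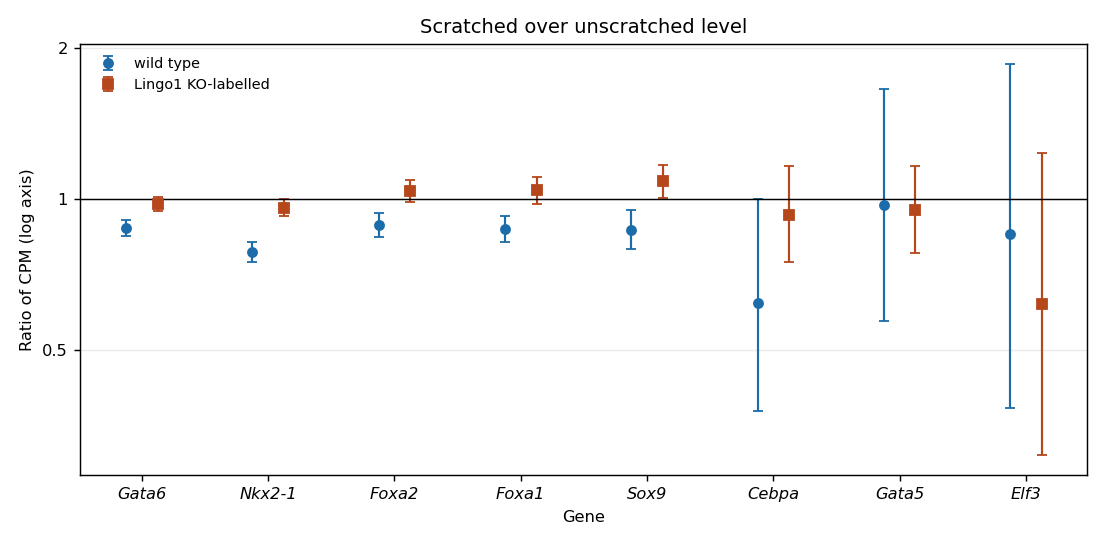
Ratio of CPM in scratched over unscratched cells (log axis) in wild-type (circles) and knockout-labelled cells (squares), with 95% counting intervals. In wild type the 5 abundant factors lie between 0.784 and 0.889, and in knockout-labelled cells between 0.961 and 1.08.

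Relatives of the members in the same gene families were counted by the same rule. Of 33 further NKX2, FOXA, GATA, CEBP, SOX and ELF family genes, with Cebpz included by its name only, 14 reached 1 CPM in at least 1 library. No read was found for 6 in any library, among them the airway factor Sox2. By the 1.2-fold rule 3 of the 14 were lower (Cebpb, Sox4 and Sox8) and 0 higher without a scratch, and 2 were higher (Gata2 and Gata3) and 0 lower after it, so 0 met it in both. These are 21.4% and 14.3% of the 14, against 22% and 17.1% of all genes, and the median log2 difference was -0.05 and 0.02. In the wild-type scratch response 7 of the 14 met the rule, 6 lower (Cebpb, Cebpd, Gata2, Gata3, Sox4 and Sox8) and 1 higher (Cebpz), or 50% against 9.44% of all genes. In knockout-labelled cells 0 of 14 did, against 5.51%. For the quotient of the responses 5 did, all above 1 (Cebpb, Cebpd, Gata3, Sox4 and Sox8), or 35.7% against 7.73%. The wild-type unscratched library enters the first and the last of these counts. Gata3, at 0.922, 0.430, 1.32 and 1.73 CPM in the 4 conditions, passed the 1 CPM filter only through the knockout-labelled libraries. Its direction between the genotypes, and its place in the other counts, was thus partly set by that filter.

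The GATA family was carried by Gata6 and Gata4, another factor of endoderm and heart. Gata6 made up 75.6% and 74.5% of the summed RPKM of the 6 GATA genes in wild-type unscratched and scratched cells and 72.8% and 72.9% in knockout-labelled cells. Gata4 held 22.4% to 23.9% in the 4 libraries, with knockout-labelled to wild-type ratios of 0.874 and 0.892. Gata5 had a share of 0.404% and 0.441% in wild type and of 2.31% and 2.25% under the knockout label. Gata5 amounted to 0.00534 and 0.00592 RPKM per RPKM of Gata6 in wild type and to 0.0317 and 0.0309 in knockout-labelled cells.

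Among the CEBP genes, Cebpg and Cebpb were the abundant ones. Cebpa accounted for 1.98% and 1.40% of the family's summed RPKM in wild-type unscratched and scratched cells, and for 6.16% and 5.34% in knockout-labelled cells. Cebpb, a factor of the acute phase and of stress, stood at 19.1, 13.8, 15.3 and 15.0 CPM in the 4 conditions, with the highest value in wild-type unscratched, like Nkx2-1. Cebpg, a partner of other leucine zipper factors, was at 91.2, 90.9, 79.3 and 90.6 CPM. Cebpz, named for the same motif but known for its part in ribosome assembly, was at 61.9, 74.6, 66.9 and 72.2 CPM and was left out of the family sum.

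Sox9 came after Sox4 and Sox12 in its family and made up 18.0% to 19.4% of its summed RPKM. Sox4, a factor of many progenitor cells, was at 103, 79.1, 82.0 and 83.0 CPM in the 4 conditions. Sox12 lay between 70.3 and 81.1 CPM and Sox5 between 12.4 and 14.6 CPM.

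The ETS factors of the ELF group were represented by the broadly expressed Elf1, Elf2 and Elf4, at 91.9 to 132 CPM in the 4 libraries. Elf3 made up 0.308% to 0.489% of the summed RPKM of this group, and the epithelial relatives Ehf and Spdef stayed under 0.5 CPM in every library. Nkx2-1 made up 99.7% to 99.9% of the NKX2 sum.

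**Figure D4:**
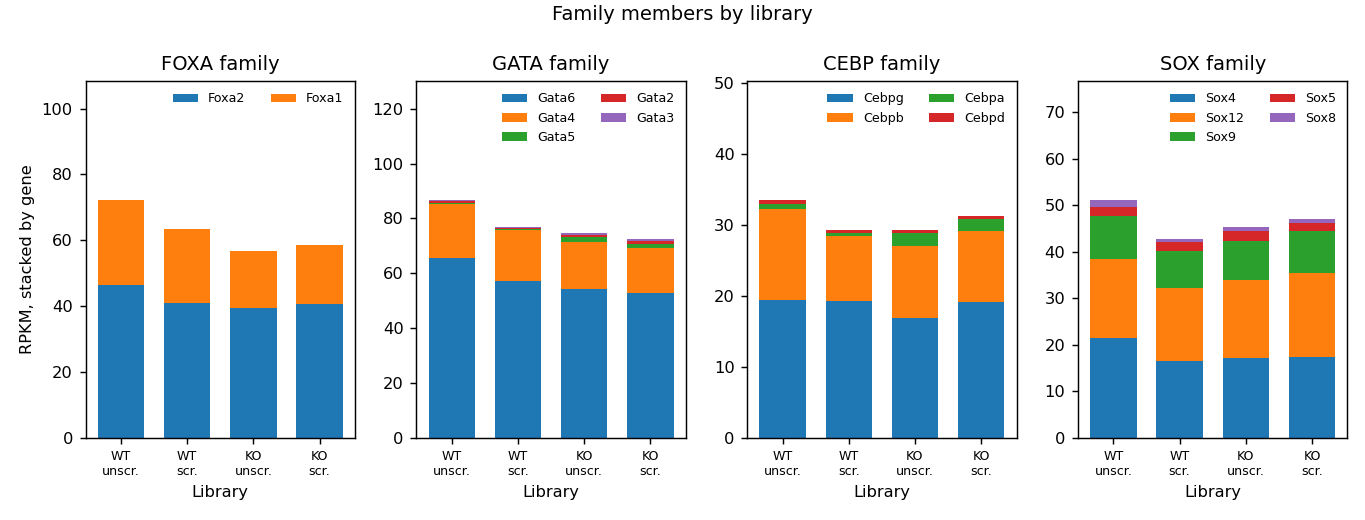
Authors' RPKM stacked by gene for the FOXA, GATA, CEBP and SOX families in each library, showing genes that reach 0.5 RPKM. Gata5 and Cebpa widen in the knockout-labelled bars to at most 2.31% and 6.16% of their families, and Foxa1 narrows from 25.9 and 22.5 to 17.4 and 18.0 RPKM.

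Other transcription factors of the lung differed in both directions. The 43 listed include some that are not particular to epithelium, such as Gli3 and Meis1. Of the 43 genes, 31 reached 1 CPM in at least 1 library. By the 1.2-fold rule 5 were higher and 5 lower without a scratch, and 5 and 5 after it. These are 32.3% of the 31 in each comparison, against 22% and 17.1% of all genes. In both comparisons 4 were higher (Etv4, Etv5, Id2 and Trp63) and 4 lower (Foxp2, Grhl3, Meis1 and Nfia), or 12.9% each. Over all 12348 genes, 6.09% were higher in both and 4.17% lower in both. The ETS factors Etv4 and Etv5, effectors of FGF signalling at the lung tips, were 1.56-fold and 1.70-fold and 1.45-fold and 1.22-fold higher in knockout-labelled cells, unscratched and scratched. Hopx, a marker of alveolar type 1 cells, was 1.23-fold and 1.19-fold higher, and the lipid regulator Srebf1 1.10-fold and 1.12-fold. Foxp2, a forkhead repressor of the distal epithelium, stood at 0.793 and 0.807 times wild type, the epithelial factor Grhl3 at 0.815 and 0.755, and Meis1, a homeodomain factor, at 0.800 and 0.745.

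Of 14 partners of the members, 13 reached 1 CPM. By the 1.2-fold rule 4 differed without a scratch, 2 higher (Ncoa1 and Tle3) and 2 lower (Tle1 and Wwtr1), and 3 were higher (Ncoa1, Tle3 and Zfpm1) and 0 lower after it. These are 30.8% and 23.1% of the 13, against 22% and 17.1% of all genes, and the 2 higher in both make 15.4%, against 6.09%. Tle3, a corepressor that binds forkhead factors, was 1.35-fold and 1.51-fold higher, the nuclear receptor coactivator Ncoa1 1.31-fold and 1.29-fold, and Zfpm1, a cofactor that binds GATA factors, 1.14-fold and 1.42-fold. Ncoa3, a relative of Ncoa1, was 1.10-fold and 1.17-fold higher. Wwtr1, known as TAZ and as a coactivator of NKX2-1, stood at 0.829 and 0.834 times wild type, the corepressor Tle1 at 0.789 and 0.909, and the acetyltransferase Crebbp at 1.03 and 0.989.

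Genes linked to these factors in lung epithelium, such as surfactant, mucin and lipid genes, were more often higher than lower under the knockout label. Of 28 listed, 17 reached 1 CPM. By the 1.2-fold rule 10 were higher and 0 lower without a scratch, and 10 higher and 1 lower (the protease Napsa) after it, the same 10 genes in both. The higher ones are 58.8% of the 17 in each comparison, against 11.7% and 9.6% of all genes, and 6.09% of all genes were higher in both. The median log2 difference was 0.43 and 0.29, against 0.01 and 0.00 over all genes. This list was put together with several of its differences already known, so its counts give no independent direction.

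The surfactant protein genes Sftpb and Sftpc and the mucins Muc5b and Muc5ac led this list. Sftpb was at 25.4 and 22.9 CPM in wild-type unscratched and scratched cells and at 107 and 93.5 CPM in knockout-labelled ones, and Sftpc at 5.68 and 6.42 against 20.6 and 19.8 CPM. At the other end, among listed genes at 5 CPM or more in at least 1 library, Cdh1 stood at 0.905 and 0.902 times wild type. The alveolar type 1 receptor Ager stood at 0.966 and 0.869, and the retinoid-induced receptor Gprc5a at 0.922 and 0.944. Napsa, at only 1.17 to 1.90 CPM, stood at 0.870 and 0.615 times wild type. Abca3 (1.06 and 1.06) and Aqp5 (1.01 and 1.02) were near 1.

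**Figure D5:**
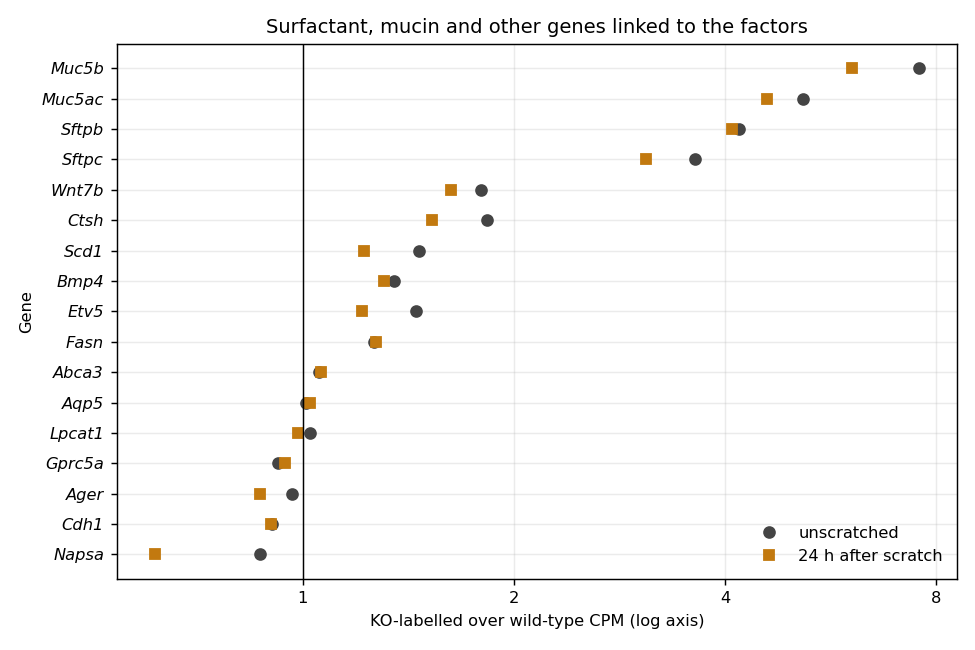
Ratio of CPM in knockout-labelled over wild-type cells (log axis) for the 17 listed genes at 1 CPM or more, without a scratch (circles) and 24 h after it (squares). Muc5b, Muc5ac, Sftpb and Sftpc lie at 3.09 or above in both comparisons, and Abca3, Aqp5 and Lpcat1 lie near 1.

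Markers of other cell types also differed between these libraries. Of 14 markers, 7 reached 1 CPM in at least 1 library, and 4 were higher in both knockout-labelled libraries (Col1a1, Pdgfra, Pdgfrb and Trp63), or 57.1% against 6.09% of all genes. The list was chosen with earlier results known, so this count gives no independent direction. The collagen gene Col1a1 was at 21.3, 16.5, 197 and 177 CPM in the 4 conditions, 9.26-fold and 10.7-fold higher under the knockout label, a larger difference than that of any member. Pdgfrb, a receptor of pericytes and fibroblasts, had 0, 1, 67 and 135 reads. It passed the 1 CPM filter only through the knockout-labelled libraries, so its direction in the count was partly set by that filter. The fibroblast receptor Pdgfra was 1.78-fold and 1.69-fold higher, from only 35, 32, 68 and 93 reads in the 4 conditions. The basal cell factor Trp63 was 2.90-fold and 1.97-fold higher, from only 30, 39, 95 and 132 reads. The summed level of the list was 2874 and 2843 CPM in wild-type and 2919 and 2670 CPM in knockout-labelled cells, unscratched and scratched, most of it the matrix proteoglycan Dcn. Dcn did not go with Col1a1, Pdgfra and Pdgfrb: it stood at 0.952 and 0.880 times wild type. The endothelial cadherin Cdh5, the leukocyte antigen Ptprc and the basal keratin Krt5 had no read in any library. The part of these markers in the differences of Gata5, Cebpa and Foxa1 was not tested.

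Other genes were ranked by how like a member they were across the libraries. For the 3 members whose highest CPM was at least 1.5 times the lowest, likeness was the Euclidean distance between log2 CPM profiles over the 4 libraries, each centred on its own mean, among 11605 protein-coding genes. Closest to Gata5 were the mast cell protease gene Mcpt2 (distance 0.15), whose close paralogs make its count uncertain, the mucin Muc5ac (0.19) and the glycogen-targeting subunit Ppp1r3a (0.20), all under 6 CPM. Closest to Cebpa were Igdcc4 (0.07), Pitpnc1 (0.23) and the scavenger receptor Scara5 (0.24), all under 5 CPM. For Elf3 they were Dnah10 (0.08), Cux2 (0.11) and Tiam2 (0.11), a likeness to a profile that does not leave its own counting error. Mcpt2, Ppp1r3a, Igdcc4 and Pitpnc1 were under 1 CPM in both wild-type libraries. They passed the 1 CPM filter only through the knockout-labelled libraries, so their likeness to Gata5 or Cebpa was partly set by that filter. Among genes of at least 5 CPM in 1 library, 1 of the 3 genes remained for Gata5 and 0 for Cebpa and for Elf3.

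The members are spread over 6 chromosomes of mm10. Nkx2-1 spans 56531958 to 56536908 and Foxa1 57540628 to 57546916 on chromosome 12, both on the minus strand, and Foxa2 spans 148042877 to 148046969 and Gata5 180325133 to 180334699 on chromosome 2, also on the minus strand. Cebpa lies on chromosome 7 (35119293 to 35121928, plus strand), Sox9 on chromosome 11 (112782224 to 112787760, plus strand), Gata6 on chromosome 18 (11052064 to 11085635, plus strand) and Elf3 on chromosome 1 (135253575 to 135258568, minus strand). Annotated genes on the opposite strand overlap 5 of them, and the strand setting of the counting is not given in the sources used here. Gm26973 over Nkx2-1 had 51 to 91 reads, Gata6os over Gata6 73 to 111, Gata5os over Gata5 0 to 5 and Gm26642 over Elf3 1 to 3. Gm45091 over Cebpa was missing from the genes in the deposited counts, so no separate count of it was available. Without the strand setting, reads of a member and of its antisense partner cannot be told apart.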

How the data were processed

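Raw read counts of 46078 genes and RPKM values of 14844 genes (14683 with values) were deposited by the authors. The submitters' processing notes name the build mm10 and the tools edgeR 3.32.1, HTSeq 0.11.3, STAR 2.7.9a and Trimmomatic 0.39, without their roles. Of the column letters, S was taken for scratched and N for the only other labelled state, unscratched. Counts were scaled with TMM factors (edgeR 4.0.16, R 4.3.3), and genes at 1 CPM or more in at least 1 library formed the background. Ratios, their exact 95% Clopper-Pearson intervals and the Poisson intervals of levels were computed with scipy 1.17.1 in Python 3.11.15. The interval of a quotient of ratios came from the counting variance on the log scale. The ratio intervals and the size rule were run on simulated counts that held counting error only, scaled by total counts. Such counts cannot check the spread between libraries. The intervals of levels and of quotients were not run on them. With 1 library per condition no test was run. Reads carry no molecular identifiers, so intervals may be too narrow.

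The members and all gene lists were chosen with earlier results of these data known. All members are named. From each list, the text names mainly the 4 genes with the largest and the 3 with the smallest mean log2 difference between the genotypes among those at 5 CPM or more, and others as examples chosen after their values were seen. Gene positions came from GENCODE on GRCm38. Alternatives were total counts, upper-quartile and DESeq2 1.42.0 scaling, the authors' RPKM values with pseudocounts of 0.1 and 1, a prior count of 2, and other filters.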

Additional observations from a re-analysis of the deposited data

Results flagged for a closer look

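Sox9 was lower after the scratch in wild-type cells (0.869 times the unscratched level, 0.794 to 0.950) and higher in knockout-labelled cells (1.08 times, 1.00 to 1.17), so the single library pairs differed in opposite directions. Only the wild-type interval left out 1 under every scaling: the lower bound in knockout-labelled cells was 0.993 with total counts, 0.985 with upper-quartile and 0.998 with DESeq2 factors. The quotient of the responses was 1.25, and the difference was not tested, since each condition had 1 library.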

How the results depend on the processing

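Of 232 member ratios recomputed under the alternatives, 228 stayed within their counting interval and none of those that met the 1.2-fold rule changed direction. The 4 that left it were Gata5 and Cebpa with the authors' RPKM values and a pseudocount of 1, which is large beside their levels: Gata5 went to 2.02 without and 1.96 after a scratch and Cebpa to 1.69 and 1.90, so the number of members at 2-fold went from 2 to 1 and to 0. In the wild-type scratch response, total counts, upper-quartile and DESeq2 factors gave 2 members at 1.2-fold in place of 1, and upper-quartile factors gave 5 in place of 4 between the genotypes without a scratch, since Nkx2-1 at 0.833 then met the rule. The share of all genes counted as different moved with the filter. With every gene that had a read it was 13.3% without and 10.6% after a scratch between the genotypes, 5.78% for the wild-type scratch response and 4.87% for the quotient of responses at 1.2-fold, and 1.03% for the knockout-labelled scratch response at 2-fold. At 5 CPM or more the 2-fold shares were 0.858%, 0.820%, 0.210%, 0.0572% and 0.200% for the genotypes without and after a scratch, the wild-type and knockout-labelled scratch responses and the quotient. The prior count was not run for the quotient. No paired analysis was possible because each condition had 1 library. Depth limits Elf3 most, at 14 to 19 reads per library.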
